A study of Mus musculus with 7 samples.

Results

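The collagen chain genes are the genes that encode the alpha chains of the collagens. They were found by mapping the gene identifiers of the count tables to mouse symbols and taking every symbol made of Col, the collagen type, the letter a and the chain number, which gave 44 of 49315 genes. By the structure of the proteins they fall into 11 fibrillar chains, 9 chains of basement membranes, 9 FACIT chains (fibril-associated collagens with interrupted triple helices), 4 transmembrane chains, 6 beaded filament chains of type VI, 3 chains of the short chain networks of types VIII and X, and 2 other chains. RNA came from cultures of primary mouse oligodendroglia, and the question was how loss of Klf13 changes their gene expression. The cells were taken from brains of newborn pups of both sexes, either Klf13 knockouts (3 libraries) or wildtype controls (4 libraries). All cultures were prepared from mixed glia by shake-off and microglia depletion, plated on poly-D-lysine and laminin, and kept for 6 days in SATO medium with T3 and T4 to differentiate. The knockout is constitutive, so Klf13 was deleted in every cell type in the dish and in the brain the cells came from, and the cultures may hold other cells beside oligodendroglia.

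Collagens are trimers whose chains wind into a triple helix, and the helix requires glycine at every repeat of the motif Gly-X-Y. Fibrillar chains carry an almost unbroken helix and pack side by side into fibrils, whereas the helices of basement membrane chains are interrupted and join into flexible networks. FACITs sit on the surface of fibrils, and transmembrane collagens span the cell membrane. In the brain, meninges and blood vessels hold most fibrillar collagen, and type IV collagen is a main part of the vascular and pial basement membranes.

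The class difference can be read in the genes themselves, and the sequences below illustrate it for chains described in the results, with exons picked to show it. In the longest coding transcript of each gene in GENCODE M21, the longest run of codons with glycine at every Gly-X-Y step held 216 to 344 repeats in fibrillar chains (median 338). It held 30 to 75 repeats in basement membrane chains (median 42), 32 to 113 in FACITs and 40 to 56 in transmembrane chains. Exons of 54 bases, which encode whole Gly-X-Y repeats, numbered 21 to 33 in a fibrillar gene, 1 to 6 in a basement membrane gene and 4 to 28 in a FACIT gene. The exons printed here are coding exons of GRCm38, read 5′ to 3′ on the strand of the gene, and capitals mark the glycine codons of the repeat. The 4 fibrillar exons are on chr11:94942560-94942613 (plus strand, exon 20 of 51), chr1:45406544-45406597 (minus strand, exon 22 of 54), chr3:114112035-114112088 (plus strand, exon 16 of 67) and chr4:63231792-63231845 (plus strand, exon 4 of 61). The 3 basement membrane exons are on chr8:11233828-11233923 (minus strand, exon 22 of 52), chr8:11437587-11437709 (plus strand, exon 32 of 47) and chr9:108963218-108963280 (plus strand, exon 31 of 118).
Col1a1: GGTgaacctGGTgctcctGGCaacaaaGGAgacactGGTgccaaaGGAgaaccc
Col5a2: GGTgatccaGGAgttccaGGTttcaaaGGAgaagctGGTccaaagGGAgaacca
Col11a1: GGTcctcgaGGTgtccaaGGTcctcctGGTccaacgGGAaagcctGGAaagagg
Col27a1: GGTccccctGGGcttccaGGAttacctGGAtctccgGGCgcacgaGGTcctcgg
Col4a1: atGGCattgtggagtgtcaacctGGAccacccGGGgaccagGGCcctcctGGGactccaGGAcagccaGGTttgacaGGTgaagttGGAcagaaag
Col4a2: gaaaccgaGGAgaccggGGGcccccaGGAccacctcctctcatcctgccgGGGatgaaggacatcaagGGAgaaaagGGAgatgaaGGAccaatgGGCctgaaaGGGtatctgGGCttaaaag
Col7a1: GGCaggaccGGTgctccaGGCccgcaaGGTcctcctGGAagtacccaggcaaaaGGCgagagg
In the 4 fibrillar exons glycine stands at each of 6 repeats, whereas stretches without the repeat break the helix in the exons of Col4a1, Col4a2 and Col7a1. The exons were picked by these traits, unbroken repeats for the fibrillar chains and at least 1 break for the others. They are examples and no test of the class difference.

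The libraries held 24507471 to 59596479 counts on genes, and 6.03% to 18.0% of these fell on Gm42418, Gm23935 and Lars2, on which reads of ribosomal RNA collect. Control replicates 1 and 4 and knockout replicates 1 and 3 had more than 10% there. Klf13 itself had 10670 to 12000 normalized counts in the controls against 802 to 961 in the knockouts. Control replicates 3 and 4 stood apart in the collagens: both were above control replicates 1 and 2 in 21 of the 38 tested members and below them in 2, against 18.2% above and 21.5% below among all 18352 genes tested. Summed levels of 10 fibroblast markers per kilobase were 418, 327, 911 and 791 in control replicates 1 to 4 against 348, 280 and 388 in knockout replicates 1 to 3. Of the 9 that could be tested, Dcn and Foxc1 were lower in the knockout, where 12.2% of all genes were lower, and the 3 with the highest levels were Fbn1, Prrx1 and Thbs2. Fbn1 passed with the replicate number as a block in the fit (adjusted p = 0.0173). Without control replicates 3 and 4 neither Dcn (adjusted p = 0.170) nor Foxc1 (adjusted p = 0.0826) passed, and Prrx1 was higher (log2 fold change 0.37, adjusted p = 0.0261). Endothelial markers summed to 55.8 to 153 in controls and 44.2 to 69.2 in knockouts, with Cdh5 lower among 5 tested (12.2% of all genes were lower) but not without control replicates 3 and 4 (adjusted p = 0.238), while Cldn5, Tie1, Emcn and Erg had at most 3 counts in every library. Mural cell markers summed to 3182 to 6120 and 2321 to 3757, and the 8 tested had adjusted p of 0.0633 to 0.970 in edgeR's quasi-likelihood test, with Notch3 higher under the replicate block (adjusted p = 0.0473). The highest sum of all 3 lists was in control replicate 3, and the second highest in control replicate 4. Other cells were present too, since microglia markers summed to 15212, 12982, 56674 and 14309 in the controls, highest in control replicate 3 as well, and to 13823 to 27044 in knockouts, at adjusted p of 0.467 to 0.751, 8 of 10 astrocyte markers were higher and 8 of 9 tested neuron markers were higher, where 11.6% of all genes were higher. Among the oligodendroglia markers, Mbp, Mag, Mog and Myrf were lower, and Sox10, Olig1, Olig2, Pdgfra and Cspg4 did not pass. The part of these cells in the collagen results was not tested.

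Summed collagen RNA was lower in each knockout library than in each control. The 44 genes took 0.125%, 0.145%, 0.316% and 0.264% of the counts on genes in control replicates 1 to 4, and 0.101%, 0.102% and 0.0985% in knockout replicates 1 to 3. Control replicates 1 and 2 lay closer to the knockouts than to the other controls. In bulk RNA, fewer cells of a type and less RNA per cell cannot be told apart. Every member had at least 1 count in some library, and 38 had enough counts for edgeR's quasi-likelihood test, in which p-values were adjusted over all 18352 genes tested. Here 9 chains were lower at an adjusted p of at most 0.05, where 12.2% of all tested genes were lower, and 2 were higher, where 11.6% of all genes were. Of the 11, 5 lower chains and 1 higher chain also reached an absolute log2 value of 1 or more, beside 3.08% and 3.97% of all genes. The log2 fold change was below 0 in 29 of the 38 and above it in 9, with a median of -0.66, against -0.0037 over all genes tested. In 13 tested chains every knockout library was below every control, and in 3 every knockout was above, which held for 18.0% and 18.3% of all genes. In this edgeR test no fibrillar, basement membrane or FACIT chain was higher and no transmembrane chain was lower at an unadjusted p under 0.05, whereas limma voom had 1 FACIT and 1 basement membrane chain higher at that level. At an adjusted p of at most 0.05, neither DESeq2 nor limma voom called any chain in these directions.

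The number of calls changed when single libraries were left out. For the alternatives, shares over all genes are given only with the replicate block and without control replicates 3 and 4 together. In the other settings a change of collagen calls cannot be told apart from a change over all genes. Without knockout replicate 1, edgeR's quasi-likelihood test called 0 chains lower (14 at an unadjusted p under 0.05), without control replicate 4 or knockout replicate 2 it called 1, and without knockout replicate 3 it called 2, whereas without control replicate 2 it called 14. The chains still called were Col26a1 without knockout replicate 1, Col27a1 without knockout replicate 2, both without control replicate 4, and both with Col7a1 without knockout replicate 3. The median over all tested chains was -0.69, -0.72 and -0.65 without knockout replicates 1, 2 and 3 and -0.77, -0.80, -0.58 and -0.50 without control replicates 1 to 4. Without control replicates 3 and 4 together, 5 chains were lower and 0 were higher (1 at an unadjusted p under 0.05), against 7.91% and 6.26% of all genes, and the median was -0.38. These controls had the highest collagen shares of counts (0.316% and 0.264%). Leaving them out therefore makes most falls smaller by itself, here and below, and is no independent check. With the replicate number as a block, where control replicate 4 has no partner, 12 chains were lower and 1 was higher, against 11.1% and 9.49% of all genes, and 11 in place of 6 passed both limits. The labels do not say that the numbers mark pairs. DESeq2's Wald test called 18 lower and 2 higher, and limma voom 4 and 2, while edgeR called 1 and 1 with the share on genes that collect ribosomal RNA as a covariate. Over 19 settings, Col7a1 was called in 13, Col5a2 in 12, Col2a1 in 9, and Col5a1, Col4a3, Col20a1 and Col23a1 in 7 each. The median was -0.64 within the libraries with over 10% of counts on the genes that collect ribosomal RNA and -0.68 within the others.

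**Figure D1:**
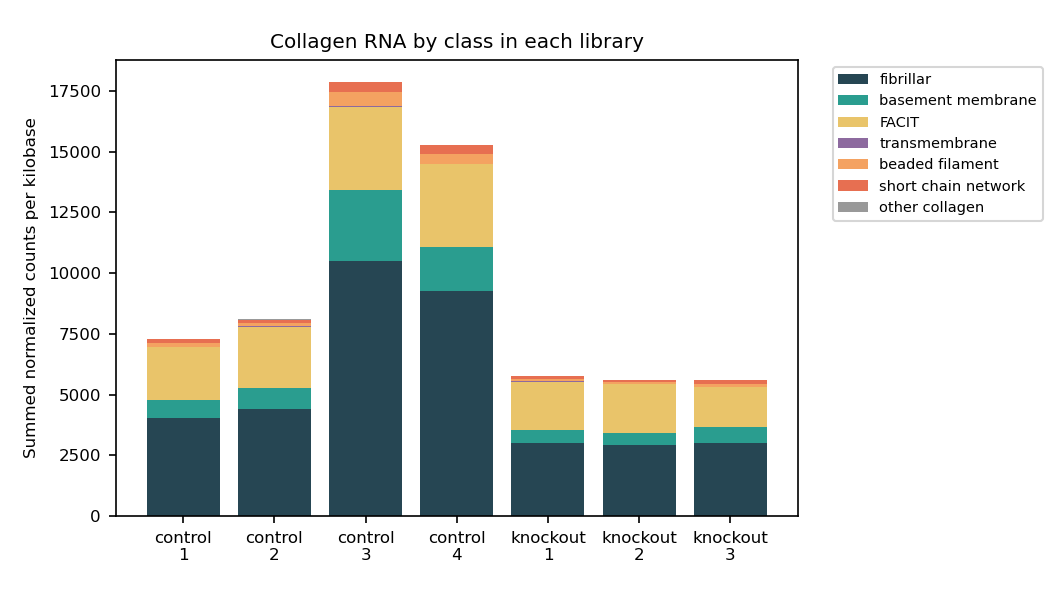
Summed level of each collagen class (normalized counts per kilobase of gene length, stacked bars) in each of the 7 libraries. Control replicates 3 and 4 reach 17877 and 15262 in all, the other controls 7296 and 8090 and the knockouts 5595 to 5764.

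Levels of different genes were compared per kilobase of gene length, where the length covers all annotated exons of a gene. On this scale Col11a1, Col20a1, Col1a1 and Col11a2 made up 50.4% to 62.1% of the summed collagen level in every library. The length was 12426 bases for Col1a2, with 4116 coding bases, and 6563 for Col1a1, with 4359. The order of genes and the class shares can therefore depend in part on the annotation. Fibrillar chains were the largest class, with 55.3%, 54.5%, 58.7% and 60.8% of the summed level in control replicates 1 to 4 against 52.2%, 52.2% and 53.95% in the knockouts. FACITs followed with 29.8%, 31.4%, 19.2% and 22.2% in the controls against 34.4%, 35.6% and 29.6% in the knockouts, where the groups overlapped. Basement membrane chains held 10.3%, 10.5%, 16.3% and 11.8% in the controls against 9.26%, 8.90% and 11.3% in the knockouts, which overlapped as well. Transmembrane chains were the rarest of these classes, with 0.131%, 0.115%, 0.0452% and 0.0442% in the controls against 0.235%, 0.243% and 0.238% in the knockouts. The fibrillar share was thus below every control in each knockout and the transmembrane share above every control, and in both classes control replicates 3 and 4 were the controls farthest from the knockouts.

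**Figure D2:**
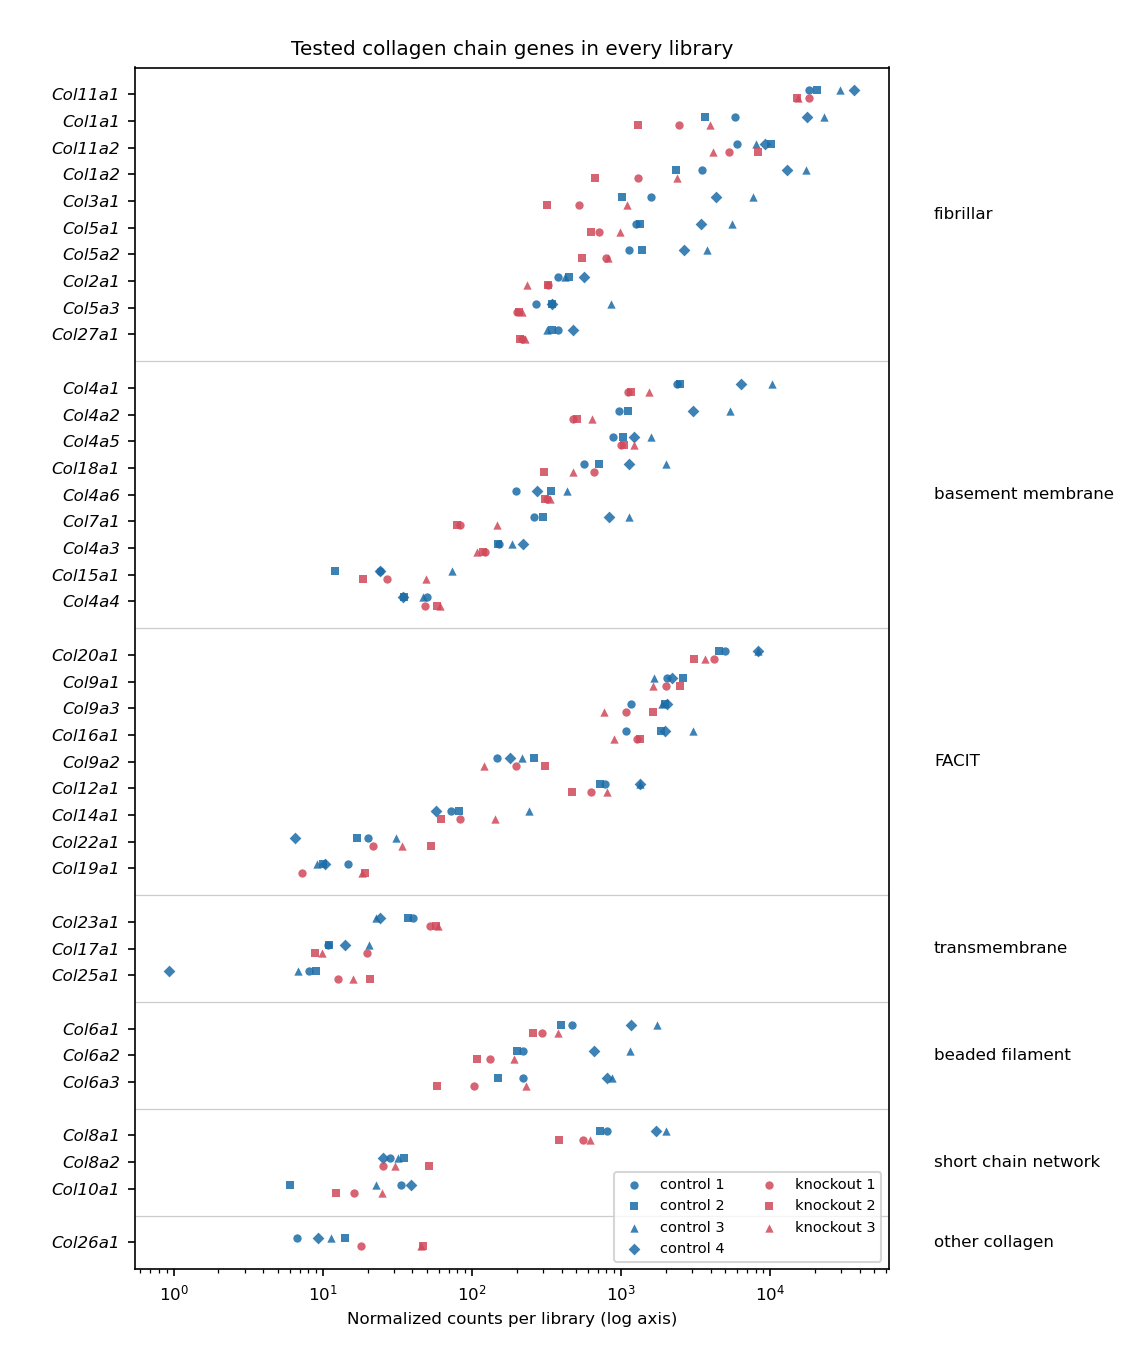
Normalized counts of the 38 tested collagen chain genes (log axis) in each library, ordered by class and level, with blue symbols for controls and red symbols for knockouts. Control replicates 3 and 4 lie to the right of the other controls in most fibrillar and basement membrane chains, whereas the knockouts are the higher group for Col23a1, Col25a1 and Col26a1.

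Among the fibrillar chains, the class with the most RNA, 4 of 10 tested fell (Col5a1, Col5a2, Col2a1 and Col27a1) and none rose, where 12.2% of all genes tested were lower and 11.6% higher. The median log2 fold change was -1.37, with all 10 between -2.64 and -0.49, and it was -0.74 without control replicates 3 and 4. Library values are given here and below as normalized counts, in the order of control replicates 1 to 4 and knockout replicates 1 to 3. Col11a1, a chain of type XI that sets the width of fibrils, had 18113, 20623, 29609 and 36828 in the controls against 18230, 15162 and 15472 in the knockouts. Its groups touched, with knockout replicate 1 just above control replicate 1, and its log2 fold change of -0.69 did not pass (SE 0.24, adjusted p = 0.0811 in edgeR's quasi-likelihood test). Col11a2, its partner chain, had 6019, 10114, 8111 and 9207 in the controls against 5339, 8336 and 4160 in the knockouts, and the groups overlapped (log2 fold change -0.49, SE 0.26, adjusted p = 0.223).

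Both chains of type I collagen, the main collagen of connective tissue, varied widely among the controls. Col1a1 had 5815, 3686, 23150 and 17704 in the controls against 2441, 1307 and 3937 in the knockouts. Knockout replicate 3 was above control replicate 2, and the log2 fold change of -2.30 did not pass (SE 0.72, adjusted p = 0.0565), though it did with the replicate block (-1.77, adjusted p = 0.0109). Col1a2 had 3506, 2346, 17475 and 12953 in the controls against 1304, 674 and 2389 in the knockouts. Here too 1 knockout library reached the lowest control, and the log2 fold change was -2.64 (SE 0.82, adjusted p = 0.0546, and 0.00923 with the block). Col3a1, which forms fibrils together with type I, had 1591, 1015, 7702 and 4325 in the controls against 522, 320 and 1103 in the knockouts (log2 fold change -2.49, SE 0.79, adjusted p = 0.0591, and 0.00702 with the block). Without control replicates 3 and 4 the log2 fold changes of Col1a1, Col1a2 and Col3a1 shrank to -0.89, -1.008 and -1.002, with adjusted p between 0.2497 and 0.263.

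Of type V, whose chains start fibrils and are built into their core, Col5a1 and Col5a2 fell and Col5a3 did not pass. Col5a1 (chr2:27886425-28039514) had 1258, 1337, 5577 and 3442 in the controls against 713, 632 and 989 in the knockouts. All knockouts were below all controls, and the log2 fold change was -1.90 (SE 0.56, adjusted p = 0.0475), and -0.74 without control replicates 3 and 4 (adjusted p = 0.0559). Col5a2 (chr1:45374321-45503282) had 1136, 1389, 3769 and 2635 in the controls against 794, 551 and 821 in the knockouts. Its groups did not overlap either, and its log2 fold change of -1.63 (SE 0.43, adjusted p = 0.0334) passed also without control replicates 3 and 4 (-0.81, adjusted p = 0.0438). Col5a3 had 270, 344, 854 and 343 in the controls against 202, 207 and 217 in the knockouts, without overlap (log2 fold change -1.12, SE 0.40, adjusted p = 0.0854).

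Col27a1 and Col2a1 fell less but more evenly, and control replicates 3 and 4 were not set apart in them. Col27a1 (chr4:63214004-63334991), a fibrillar chain known from cartilage, had 381, 345, 319 and 478 in the controls against 217, 210 and 226 in the knockouts. Its groups were well separated, with a log2 fold change of -0.81 (SE 0.16, adjusted p = 0.0108), and it was called in 18 of 19 settings of the test. Only leaving out knockout replicate 1 moved it past the limit, to an adjusted p of 0.0507. Col2a1 (chr15:97975602-98004695), the main fibrillar chain of cartilage, had 381, 446, 424 and 567 in the controls against 323, 325 and 234 in the knockouts. All knockouts were below all controls, and the log2 fold change was -0.63 (SE 0.18, adjusted p = 0.0411, and 0.0680 with the block). It was -0.50 without control replicates 3 and 4 (adjusted p = 0.136). Col24a1 was too low to be tested, with 0 to 11 counts in a library.

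**Figure D3:**
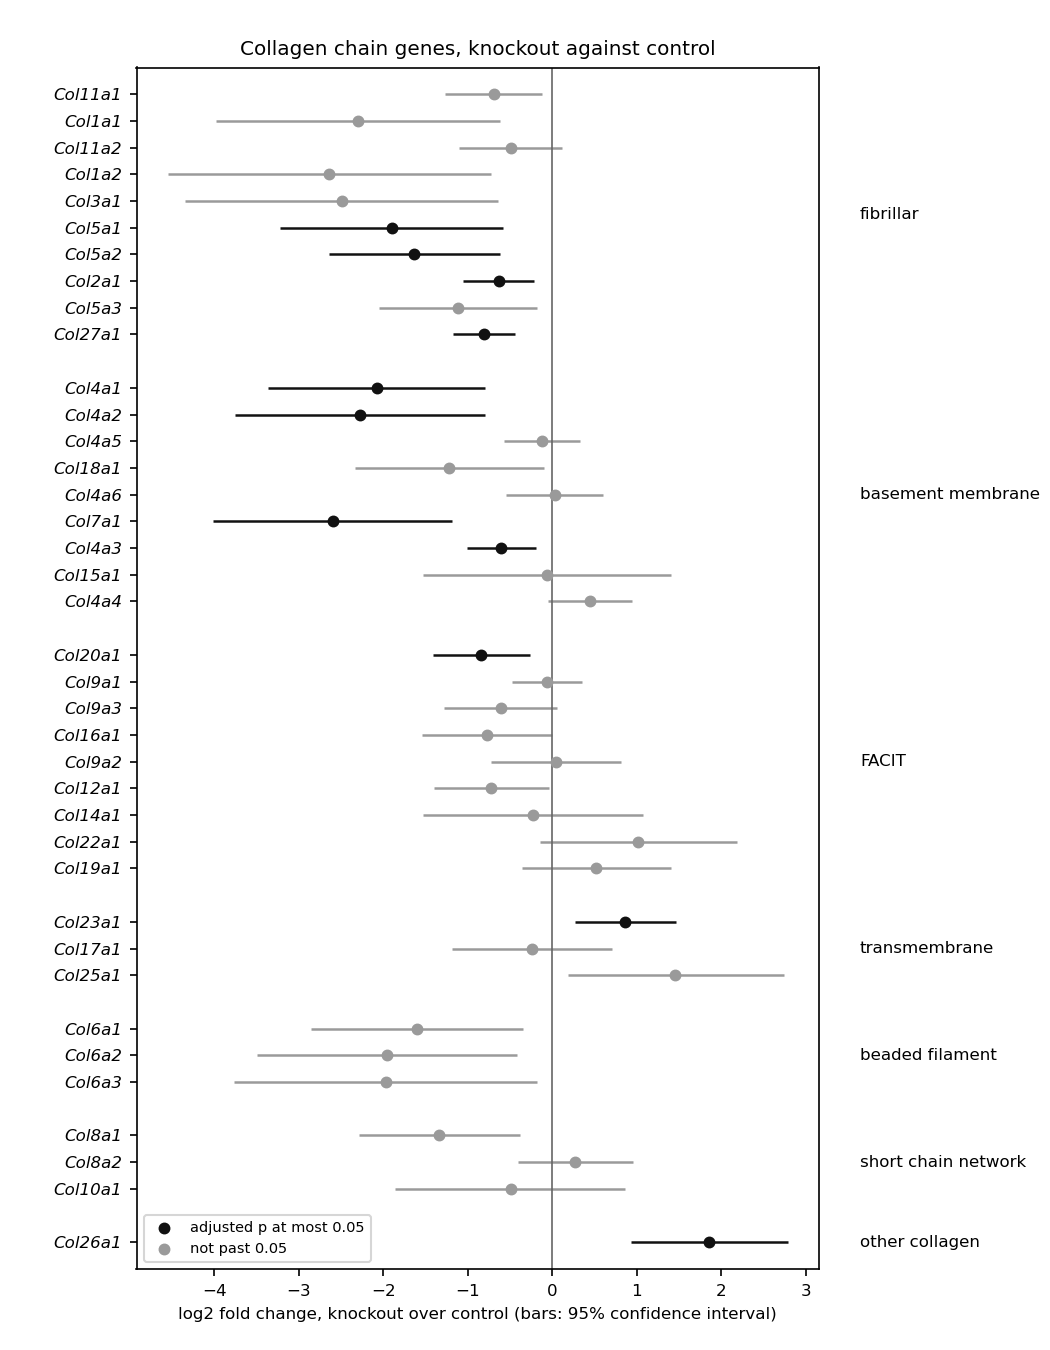
log2 fold change (knockout over control) of the 38 tested collagen chain genes with 95% confidence intervals, black where the adjusted p was at most 0.05 and grey elsewhere. The type I and III chains have low values with wide intervals, and Col27a1, Col2a1, Col4a3 and Col20a1 pass with smaller changes and narrow intervals.

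Of the 9 basement membrane chains, 4 fell (Col4a1, Col4a2, Col7a1 and Col4a3) and none rose, beside 12.2% lower and 11.6% higher among all genes, with a median of -0.60. The median was -0.37 without control replicates 3 and 4, and edgeR's quasi-likelihood test called 0 of these chains without control replicate 4, knockout replicate 1 or knockout replicate 2 (4, 5 and 4 at an unadjusted p under 0.05). Col4a1 and Col4a2 form the type IV network found in all basement membranes. Col4a1 (chr8:11198423-11312826) had 2389, 2507, 10242 and 6422 in the controls against 1109, 1173 and 1544 in the knockouts. Every knockout was below every control (log2 fold change -2.08, SE 0.55, adjusted p = 0.0332). Col4a2 (chr8:11312805-11449287) had 971, 1110, 5415 and 3037 in the controls against 478, 507 and 641 in the knockouts, again without overlap (log2 fold change -2.28, SE 0.63, adjusted p = 0.0386). Without control replicates 3 and 4 the changes were smaller but passed, at -0.94 for both (adjusted p = 0.0127 and 0.0130). Neither passed without control replicate 4 or without any 1 of the knockouts, where the adjusted p reached 0.113 for Col4a1 and 0.125 for Col4a2, and each was called in 11 of 19 settings.

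Col7a1 (chr9:108953586-108984875), the chain of the anchoring fibrils that tie the basement membrane of the skin to the tissue below, fell most among the basement membrane chains. It had 260.6, 302, 1138 and 827 in the controls against 83.05, 79.05 and 149 in the knockouts. The groups were apart, with a log2 fold change of -2.60 (SE 0.61, adjusted p = 0.0217) and of -1.43 without control replicates 3 and 4 (adjusted p = 0.0308). Col18a1, whose C-terminal fragment is endostatin, had 562, 716, 2016 and 1138 in the controls against 661, 307 and 474 in the knockouts, which overlapped (log2 fold change -1.22, SE 0.48, adjusted p = 0.109). Col15a1, its relative, was low, at 12.1 to 73.2 and 18.6 to 49.5 (log2 fold change -0.06, adjusted p = 0.959).

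The other type IV chains had smaller differences than Col4a1 and Col4a2. Col4a5 had 891, 1029, 1584 and 1226 in the controls against 1006, 1045 and 1217 in the knockouts, and the log2 fold change had 95% confidence limits of -0.56 and 0.33. Col4a6 had 198, 341, 438 and 275 in the controls against 318, 309 and 332 in the knockouts, with an interval from -0.54 to 0.60. For neither chain did the interval reach the estimated changes of Col4a1 or Col4a2. Col4a3 (chr1:82586921-82722059) had 151, 150, 187 and 219 in the controls against 123, 120 and 108 in the knockouts and fell by 0.60 on the log2 scale (SE 0.18, adjusted p = 0.0452, and 0.117 with the block). Without control replicates 3 and 4 its log2 fold change was -0.37 (adjusted p = 0.186). Col4a4 had 49.96, 35.2, 46.9 and 34.6 in the controls against 48.7, 58.4 and 60.9 in the knockouts, and did not pass (log2 fold change 0.44, SE 0.21, adjusted p = 0.180). Part of the exons of Col4a3, 5.65% of its length, is shared with a transcript on the opposite strand, and whether the counting used the strand was not stated.

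The type IV genes lie in head-to-head pairs that share the region of their start sites, which is why the starts of Col4a1 and Col4a2 are shown. Their annotated ends overlapped by 22 bases on chromosome 8, and both fell. In the pair of Col4a4 and Col4a3, 71 bases apart on chromosome 1, Col4a3 fell and Col4a4 did not pass, and in the pair of Col4a6 and Col4a5, 1308 bases apart on the X chromosome, neither passed. The windows from 250 bases before to 50 bases after the start, from RefSeq on GRCm38.p6, were chr8:11312777-11313076 (minus strand) for Col4a1 and chr8:11312555-11312854 (plus strand) for Col4a2, and they overlap each other. Capitals mark the GC box GGGCGG and the box CACCC on either strand, sequence types bound by factors of the Klf and Sp families.
Col4a1: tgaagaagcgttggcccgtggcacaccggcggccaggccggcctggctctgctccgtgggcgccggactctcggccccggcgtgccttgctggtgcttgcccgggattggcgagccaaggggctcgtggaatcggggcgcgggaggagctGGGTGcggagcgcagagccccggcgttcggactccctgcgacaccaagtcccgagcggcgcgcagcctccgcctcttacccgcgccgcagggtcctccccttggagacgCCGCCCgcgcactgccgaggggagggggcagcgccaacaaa
Col4a2: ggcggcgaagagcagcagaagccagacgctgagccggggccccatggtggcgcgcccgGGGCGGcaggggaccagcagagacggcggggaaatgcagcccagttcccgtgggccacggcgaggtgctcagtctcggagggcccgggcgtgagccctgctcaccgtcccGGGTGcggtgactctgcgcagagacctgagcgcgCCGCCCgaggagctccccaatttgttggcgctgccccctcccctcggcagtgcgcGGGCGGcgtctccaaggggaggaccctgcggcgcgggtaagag
The window of Col4a1 held 1 GC box and 1 CACCC box, and that of Col4a2 held 3 and 1. Of the 35 members with a window, 22 (62.9%) held a GC box, against 35.9% of all 27025 windows, and 26 (74.3%) a CACCC box, against 56.8%. Collagen windows had a median GC content of 60% and all windows 52.7%. A match is a run of letters and not a measured binding site.

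Among the FACITs 1 of 9 tested chains fell, Col20a1, and none rose, where 12.2% of all genes tested were lower and 11.6% higher, with a median of -0.23 (range -0.84 to 1.02). This median was -0.60 over the FACITs with at least 10 counts in every library and 0.02 with the share on genes that collect ribosomal RNA as a covariate, and single libraries moved it to between -0.12 (without knockout replicate 1) and -0.43 (without control replicate 4). Col20a1 (chr2:180986535-181017540) was the FACIT with the highest level per kilobase in every library. It had 4998, 4558, 8242 and 8313 in the controls against 4185, 3105 and 3690 in the knockouts. Its groups did not overlap, and the log2 fold change was -0.84 (SE 0.25, adjusted p = 0.0470, and 0.0532 with the block). It was -0.39 without control replicates 3 and 4 (adjusted p = 0.104). Col9a1, which covers type II fibrils in cartilage, had 2048, 2594, 1670 and 2196 in the controls against 2009, 2478 and 1651 in the knockouts. Its values were intermixed, and its log2 fold change had 95% confidence limits of -0.47 and 0.36. The other type IX chains, Col9a2 and Col9a3, had log2 fold changes of 0.05 and -0.61 and did not pass (adjusted p = 0.938 and 0.172). Col16a1 and Col12a1 had -0.77 and -0.72 (adjusted p = 0.138 and 0.118), and Col12a1 passed with the replicate block (-0.57, adjusted p = 0.0227). Col14a1, Col22a1 and Col19a1 were low, below 242 normalized counts in every library, and did not pass.

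Among the transmembrane chains, which were low in every library, 1 of 3 tested rose, Col23a1, and none fell, beside 11.6% higher and 12.2% lower among all genes, with a median of 0.86. Col23a1 (chr11:51289920-51583918) had 40.5, 37.2, 22.9 and 24.3 in the controls against 52.4, 57.7 and 59.4 in the knockouts. Every knockout was above every control, and it rose by 0.86 on the log2 scale (SE 0.25, adjusted p = 0.0455, and 0.132 with the block). Without control replicates 3 and 4 its log2 fold change was 0.55 (adjusted p = 0.182). Col25a1, whose shed fragment binds amyloid, had 8.10, 9.05, 6.86 and 0.936 in the controls against 12.6, 20.6 and 15.99 in the knockouts. Its groups did not overlap either, but the difference did not pass (log2 fold change 1.45, SE 0.55, adjusted p = 0.0938). Col17a1, a chain of hemidesmosomes, had 8.94 to 20.6 over all libraries (log2 fold change -0.23, adjusted p = 0.725). Col13a1 had 1 count in control replicate 2, 3 in knockout replicate 2 and 0 elsewhere, where a count of 0 allows up to 3 counts.

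Among the beaded filament chains, which assemble into type VI microfibrils around cells, none of the 3 tested passed, at a median of -1.95. All 3 had an unadjusted p under 0.05 in edgeR's quasi-likelihood test. At an adjusted p of at most 0.05, DESeq2 called 2 and limma voom 0. Col6a1 had 467, 399, 1748 and 1168 in the controls against 298, 259 and 379 in the knockouts, without overlap (log2 fold change -1.60, SE 0.54, adjusted p = 0.0699). Col6a2 had 221, 202, 1142 and 664 in the controls against 132, 108 and 191 in the knockouts, also without overlap (-1.95, SE 0.66, adjusted p = 0.0707). Col6a3 had 221, 149, 878 and 805 in the controls against 103, 58.4 and 229 in the knockouts, which overlapped (-1.97, SE 0.77, adjusted p = 0.108, and 0.00738 with the block). The median of the 3 was -0.49 without control replicates 3 and 4. Col6a4, Col6a5 and Col6a6 were not tested, with at most 9 counts in a library apart from 24 counts of Col6a5 in control replicate 4.

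Of the short chain networks none of 3 tested chains passed, and 1 had an unadjusted p under 0.05 in edgeR's quasi-likelihood test. At an adjusted p of at most 0.05, DESeq2 called 1 and limma voom 0. Col8a1, a chain of vessel walls and of the membrane behind the cornea, had 801, 727, 1993 and 1717 in the controls against 554, 381 and 625 in the knockouts. The groups did not overlap, and its log2 fold change of -1.33 did not pass (SE 0.41, adjusted p = 0.0513), but did with the replicate block (-1.06, adjusted p = 0.0288). Col8a2 had 25.3 to 35.2 in the controls against 25.3 to 51.6 in the knockouts (log2 fold change 0.27, adjusted p = 0.555), and Col10a1, a marker of hypertrophic cartilage, 6.03 to 39.3 and 12.4 to 25.1 (-0.49, adjusted p = 0.595).

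Col26a1 (chr5:136741759-136883209), which belongs to none of these classes, rose most of all collagen chains. It had 6.75, 14.1, 11.4 and 9.36 in the controls against 18.1, 47.4 and 45.7 in the knockouts. All knockouts were above all controls, and the log2 fold change was 1.85 (SE 0.40, adjusted p = 0.0154). It was called in 16 of 18 settings, and not without knockout replicate 2 (adjusted p = 0.0637) or without control replicates 3 and 4 (adjusted p = 0.0881). Col28a1 was not tested. It had 37.9 in knockout replicate 1 and 4.12 to 9.14 in all other libraries.

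**Figure D4:**
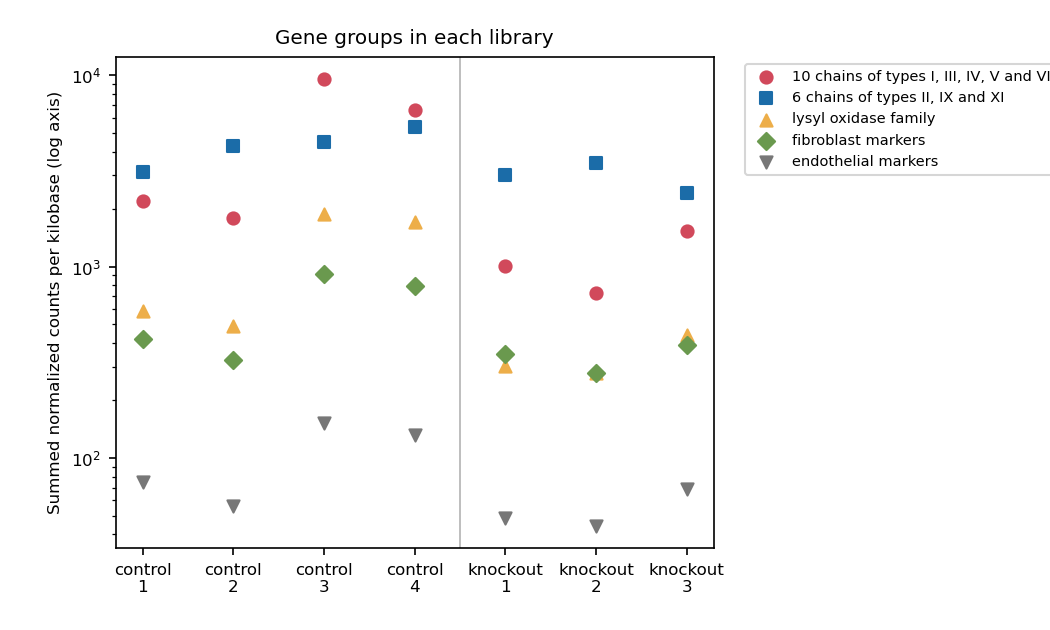
Summed level per kilobase (log axis) of 10 chains of types I, III, IV, V and VI, 6 chains of types II, IX and XI, the 5 lysyl oxidases, 10 fibroblast markers and 10 endothelial markers in each library. All sums but that of the chains of types II, IX and XI have control replicate 3 as the highest library, followed by control replicate 4.

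The chains varied among the controls in different ways, and this is shown for groups chosen after their values were seen and not tested. In 10 chains of connective tissue and vessels (Col1a1, Col1a2, Col3a1, Col5a1, Col5a2, Col4a1, Col4a2, Col6a1, Col6a2 and Col6a3) the highest control was 3.32 to 7.59 times the lowest, and their summed level per kilobase was 2215, 1788, 9568 and 6594 in the controls against 1010, 729 and 1539 in the knockouts. In 6 chains found together in cartilage (Col2a1, Col9a1, Col9a2, Col9a3, Col11a1 and Col11a2) it was 1.49 to 2.03 times the lowest, and the sum was 3121, 4285, 4472 and 5353 in the controls against 3007, 3476 and 2427 in the knockouts. The median log2 fold change of the 10 chains was -2.02, or -0.85 without control replicates 3 and 4. The 6 chains had -0.55 and -0.35. The levels of the 10 chains and of the fibroblast and endothelial markers were highest in the same libraries, and their part in the result was not tested.

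Ratios between chains that share a trimer were taken per kilobase in each library, so their size depends on the annotated lengths. They are compared between libraries only. Col1a1 stood at 3.14, 2.98, 2.51 and 2.59 times Col1a2 in the controls and at 3.55, 3.67 and 3.12 times in the knockouts. Col4a1 stood at 2.18, 2.00, 1.68 and 1.87 times Col4a2 in the controls and at 2.05, 2.05 and 2.14 times in the knockouts, so that the groups overlapped. Col6a1 to Col6a2 ran from 2.91 to 4.01 in the controls and from 3.77 to 4.56 in the knockouts, and Col5a1 to Col5a2 from 1.09 to 1.67 and from 1.01 to 1.36. The ratio of Col6a1 to Col6a3 spread further, from 3.96 to 12.1 over all libraries, and so did that of the neighbours Col3a1 and Col5a2, from 0.567 to 2.00. Col11a2 stood at 0.620, 0.915, 0.511 and 0.466 times Col11a1 in the controls and at 0.546, 1.03 and 0.502 times in the knockouts, which overlapped. Across types, Col11a1 was 0.659 to 2.88 times Col1a1 in the controls against 2.02 to 5.97 times in the knockouts, which overlapped. Both of these last ratios were chosen after the values were seen.

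**Figure D5:**
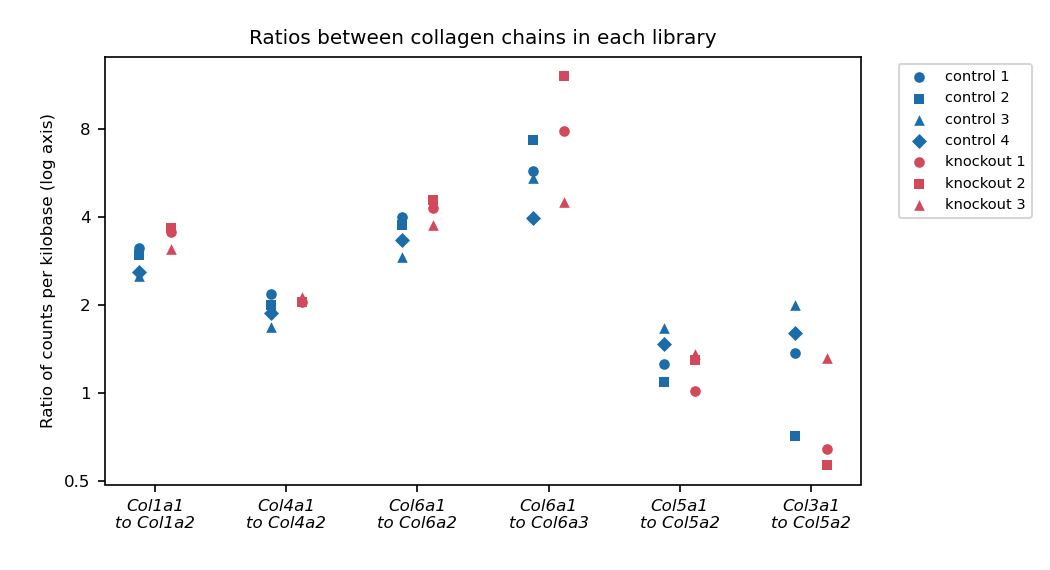
Ratio of normalized counts per kilobase between 6 pairs of collagen chains (log axis) in each library, with blue symbols for controls and red symbols for knockouts. Col1a1 to Col1a2 (2.51 to 3.67) and Col4a1 to Col4a2 (1.68 to 2.18) vary least, Col6a1 to Col6a3 and Col3a1 to Col5a2 most.

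Of 24 genes that modify, fold and process collagen chains, 4 fell (16.7%) and 2 rose (8.33%), beside 12.2% and 11.6% of all genes, at a median of -0.36, and none of these 6 reached a log2 fold change of 1 in size. P4hb, a subunit of prolyl 4-hydroxylase and a disulfide isomerase of all cells, had 13992, 14229, 17492 and 14865 in the controls against 11878, 11443 and 12374 in the knockouts (log2 fold change -0.35, SE 0.09, adjusted p = 0.0274). Plod1, a lysyl hydroxylase, and Bmp1, which removes the C-propeptide of fibrillar chains, fell by 0.58 and 0.56 on the log2 scale, and Mia3, which loads procollagen into transport carriers, fell by 0.19 (adjusted p = 0.0191, and 0.0594 with the block). With the replicate block 6 of the 24 fell, against 11.1% of all genes, as Colgalt2, Pcolce2 and Adamts14 then passed (adjusted p = 0.00790, 0.0496 and 0.0495), and without control replicates 3 and 4 5 fell, against 7.91%. P4ha3, a catalytic subunit of prolyl 4-hydroxylase, and Adamts3, a remover of N-propeptides, rose by 0.76 and 0.66. Without control replicates 3 and 4, P4ha3 passed (adjusted p = 0.00639) and Adamts3 did not (0.46, adjusted p = 0.0773). Serpinh1, the collagen chaperone HSP47, had 2609, 2931, 6026 and 4729 in the controls against 2905, 2688 and 3006 in the knockouts, which overlapped (-0.51, adjusted p = 0.248), and Ppib did not pass (0.01, adjusted p = 0.906).

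Lysyl oxidases cross-link fibrils, and of their 5 genes only Lox passed (20%, against 12.2% lower among all genes), with 1246, 949, 4802 and 4744 in the controls against 403, 300 and 826 in the knockouts. All knockouts were below all controls (log2 fold change -2.52, SE 0.72, adjusted p = 0.0416), but without control replicates 3 and 4 the log2 fold change was -1.10 and did not pass (adjusted p = 0.149). Loxl2 and Loxl1 had -2.15 and -0.99 and did not pass (adjusted p = 0.0614 and 0.128), and Loxl2 did with the replicate block (adjusted p = 0.00537). Their log2 fold changes were -0.90 and -0.18 without control replicates 3 and 4 (adjusted p = 0.315 and 0.377).

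Of 14 collagen receptors and turnover genes 4 fell (28.6%, against 12.2% of all genes), at a median of -0.44. With the replicate block 6 fell, against 11.1% of all genes, since Mmp2 and Mrc2 passed (adjusted p = 0.0317 and 0.0217). Without control replicates 3 and 4, 2 fell, against 7.91% of all genes. Ddr1, a receptor kinase for collagen that is high in oligodendroglia, had 20465, 26407, 25819 and 22498 in the controls against 11708, 13096 and 10299 in the knockouts. The groups were far apart (log2 fold change -1.02, SE 0.12, adjusted p = 0.00171). Ctsk, a collagen-cleaving cathepsin, had 239, 218, 358 and 312 in the controls against 63.2, 50.2 and 76.9 in the knockouts (-2.15, SE 0.24, adjusted p = 0.00153). Mmp13, a collagenase, had 39.2, 71.4, 143 and 88.9 in the controls against 3.61, 15.1 and 32.0 in the knockouts (-2.22, SE 0.63, adjusted p = 0.0409). It did not pass without control replicates 3 and 4 (-1.60, adjusted p = 0.175). Itgb1, the beta subunit of all collagen-binding integrins, fell by 0.40 (adjusted p = 0.0417, and 0.124 without control replicates 3 and 4), whereas Adgrg1, a receptor for type III collagen that keeps oligodendrocyte precursors dividing, had -0.07 (adjusted p = 0.698). Ddr1 and Ctsk passed with each library left out in turn, with adjusted p of at most 0.0110 and 0.0119.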

How the data were processed

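RNA of 7 cultures, 4 wildtype controls and 3 Klf13 knockouts, was measured by RNA-seq (NEBNext Ultra II, paired ends), and 1 library stands for each culture. The authors trimmed reads with Trimmomatic 0.36, mapped them to GRCm38 with STAR 2.5.2b and made the deposited counts per gene with Subread 1.5.2 from unique hits within exons. These counts are whole numbers without normalization, and the strand setting was not stated, so values of the 13 collagen genes whose exons overlap another gene are uncertain. Symbols were found for 48970 of 49315 identifiers in a table of gene names. Gene lengths are those of the count tables.

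Tests used edgeR 4.0.16 in R 4.3.3, with filterByExpr by group, TMM scaling, a robust quasi-likelihood fit with group as its only term and Benjamini-Hochberg adjustment over the 18352 genes tested. The steps were tested on simulated data. A call needs an adjusted p of at most 0.05. A normalized count is the count scaled to the mean TMM-adjusted library size, and a level per kilobase divides these by gene length. Alternatives were DESeq2 1.42.0 (an adjusted p it gives as NA stayed NA), limma 3.58.1 with voom, other scalings and filters, the share of counts on Gm42418, Gm23935 and Lars2 as a covariate or class, a replicate block, each library left out and control replicates 3 and 4 left out together. Replicate numbers in the labels are shared by control and knockout libraries. Deviations from the group means, over all tested genes, correlated at 0.11, 0.46 and 0.17 between libraries with the same number. Between others they correlated at -0.53 to 0.20, a range that holds 0.11 and 0.17. The check therefore cannot show that the numbers mark pairs, and the study does not state it. The number was used as a block in 1 alternative only. The labels call the samples biological replicates but do not say which animals each culture came from, and p-values measure the spread between these cultures.

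The members, classes and lists were chosen with earlier results of these data known. Library values are given for called chains, for the chains with the highest levels per kilobase in each class and for the neighbouring type IV pairs. Further chains named with library values were chosen to complete a trimer or class. From the lists of collagen genes that are no chains, genes past the threshold and the 3 with the highest levels are named, and Loxl2, Plod1 and similar genes to complete a group. Of 25 biosynthesis genes 24 were found by symbol. Coding exons came from GENCODE M21, in which 43 of 44 members had the same ends as in the count tables, and start windows from RefSeq. Some genes of the marker lists are not reported here.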

Additional observations from a re-analysis of the deposited data

Results flagged for a closer look

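Dixon's test for a single outlying library was applied to collagen values in the 4 controls, in 44 sets, where chance flags about 1 in 20. The 3 flags were all in chains that were tested between the groups. Chains too low for that test are not among the flags. An example is Col6a5, with 24 counts in control replicate 4 and 0 to 1 in the other controls. Col5a3 had 854 normalized counts in control replicate 3 and 270 to 344 in the other controls, so the gap to the nearest was 0.873 of the range. Col14a1 had 241 in the same library and 57.1 to 81.5 in the others, a gap of 0.868 of the range. Col9a3 had 1169 in control replicate 1 and 1889 to 2038 in the others, a gap just past the critical share of the range. None of these 3 chains passed the test between the groups, and the unadjusted p was under 0.05 for Col5a3 alone among them.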

How the results depend on the processing

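The number of lower chains (9) became 18 with DESeq2's Wald test, 4 with limma voom, 2 with no filter on low counts, 1 with the covariate for ribosomal RNA, 4 with its class as a term, 5 without control replicates 3 and 4 together, and 0 to 14 with each library left out. The number of higher chains (2) became 1 with total counts only, with no filter, with at least 10 counts in every library, with the replicate block, with the ribosomal RNA share and with its class, 0 without control replicates 3 and 4, and 0 to 2 with each library left out. The number past both limits (6) became 14 with DESeq2, 2 with voom, 1 with no filter, 11 with the replicate block, 1 with the ribosomal RNA share, 2 with its class, 1 without control replicates 3 and 4, and 0 to 12 with each library left out. The FACIT median (-0.23) became -0.60 with at least 10 counts in every library and 0.02 with the ribosomal RNA share. The short chain median (-0.49) became -0.01 with the replicate block and -0.08 without control replicates 3 and 4, where the fibrillar median (-1.37) became -0.74 and the beaded filament median (-1.95) became -0.49. The cause was not tested, and for most of these settings the share of all genes called is not given. No called chain changed sign under these alternatives. The replicate block ended 4 calls and added 6 among the chains, and no chain was called in all 19 settings. Chains with few counts, such as Col13a1, could not be compared at this depth.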
